A study of Mus musculus with 7 samples.

Results

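Ubiquitin-conjugating enzymes (E2s) encoded by the Ube2 genes were examined in Bodipy+ microglia from old and young male mice after stroke. The genes were chosen by name, as symbols made of Ube2, a letter, optional digits and an optional last letter, without Ube2l6 and Ube2c, and were selected on the expected count, which had to exceed 10 in 1 or more libraries. Of 33 genes whose symbol fitted, 29 passed this count, among 18173 of 50686 genes in the files that did. The comparison of ages rests on 28 of them, tested with 17559 autosomal genes in all. Ube2a lies on the X chromosome and was read from a fit that kept chromosomes X, Y and M. The old group held 3 C57BL/6 mice of 21 to 22 months (libraries 2posI, 3posI and 4posI) and the young group 4 mice of 3 to 4 months (14C, 18C, 23C and 29C). Every mouse, of either age, had undergone a transient occlusion of the middle cerebral artery, so no group without stroke was compared here. Microglia were sorted 4 days later by CD11b and CD45 and by Bodipy, a dye for the neutral lipids of lipid droplets, and each library came from 1 mouse.

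Ubiquitin is passed from an activating enzyme (E1) to the active-site cysteine of an E2, and from there, with the help of a ligase (E3), to a lysine of the target protein. The E2 often sets what is built: chains through Lys48 mark proteins for the proteasome, chains through Lys63 and linear chains carry inflammatory signals, and some E2s load related modifiers such as NEDD8 or FAT10 instead. In microglia these reactions serve NF-kB signalling downstream of Toll-like and TNF receptors and the clearance of damaged proteins.

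The libraries held between 36574083 and 53002386 expected counts. Markers of microglia were present in every library, with a summed level of 23389 to 34501 CPM (reads scaled to the library total) in the young libraries and 12741 to 27822 CPM in the old ones. The lowest of these values belonged to 3posI. The 8 monocyte markers summed to 22.1 to 96.1 CPM in the young libraries and to 104 CPM in 2posI, 133 CPM in 4posI and 2248 CPM in 3posI, all 8 had a fold change above 1, and in 4 of them every old value exceeded all young ones. The 8 markers of border macrophages summed to 2054 CPM in 3posI against 801 to 1370 CPM in the other 6 libraries. The 12 cell cycle markers summed to 346 CPM in 3posI and to 483 to 741 CPM elsewhere. The 8 endothelial and mural markers summed to 59.6 to 131 CPM in young and 49.6 to 80.7 CPM in old libraries. Of them 1 was called by edgeR (0.803% of all genes), and 2 had every old value below all young ones (9.07%). The 8 astrocyte markers summed to 219 CPM in 2posI and to 81.1 to 162 CPM in the other 6 libraries. The 11 lymphocyte markers summed to at most 25.1 CPM and the 8 neuronal markers to at most 5.57 CPM in any library. In 3 lymphocyte markers every old value exceeded all young ones (8.67% of all genes). No gene of the 12 marker lists was at 0 in all libraries. The part of these cells in the results was not tested. Counts of the 28 tested Ube2 genes in CPM are also given without 3posI, while the sums and most other counts include it.

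As a level per length, in TPM (reads scaled by gene length and then to the library total), the family spanned more than 2 orders of magnitude. Ube2d3, a broadly acting E2 that serves many RING ligases, was the most abundant, at 329 ± 19.2 TPM (SD, n = 4) in young and 331 ± 65.4 TPM (SD, n = 3) in old mice. Also among the most abundant were Ube2v1, at 156 ± 10.5 and 185 ± 16.2 TPM, and Ube2n, at 117 ± 6.97 and 141 ± 12.6 TPM. Ube2b ranked next after Ube2n at 102 ± 7.22 and 107 ± 3.31 TPM, a level that overlapped with that of Ube2l3 (107 ± 8.53 and 97.8 ± 7.62 TPM). At the other end were Ube2o, with 1.93 ± 0.434 and 3.09 ± 0.485 TPM, and Ube2e2, with 1.47 ± 0.421 and 1.69 ± 0.205 TPM.

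**Figure D1:**
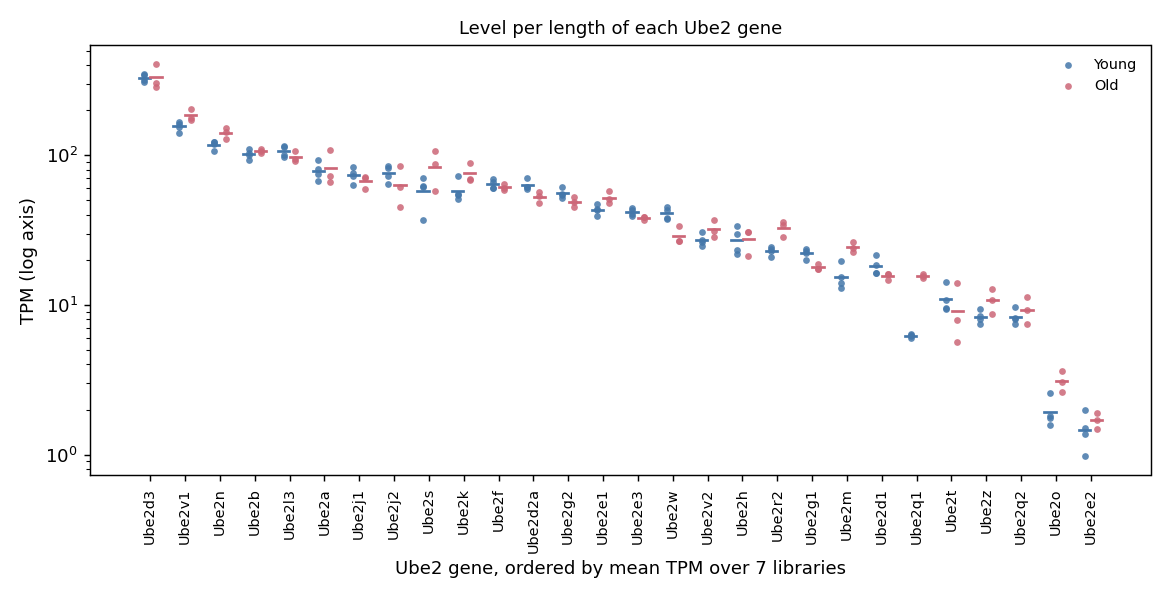
TPM of 28 of the 29 Ube2 genes (log axis), ordered by the mean over 7 libraries; points are libraries, blue for young (n = 4) and red for old (n = 3), and bars are group means. Levels run from about 330 TPM for Ube2d3 to below 2 TPM for Ube2e2, and Ube2q1 is the gene whose old and young points are farthest apart.

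The summed TPM of the 29 genes was 1829 ± 43.6 in young mice, with a range of 1768 to 1862, and 1941 ± 112 in old mice, with a range of 1862 to 2070. The highest old sum was that of 3posI, while 2posI and 4posI had 1891 and 1862 TPM. The ratio of old to young was 1.06, and 1.07 without Ube2d3. The ranges of the full sum touched, whereas without Ube2d3 the young libraries summed to 1460 to 1516 TPM and the old ones to 1577 to 1664 TPM, with no overlap.

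On the CPM scale, scaled between libraries by the trimmed mean of M values (TMM), the quasi-likelihood test of edgeR called 1 of the 28 tested genes at an adjusted p under 0.05. This was Ube2q1, higher in old mice, against 0.803% of all genes tested. An unadjusted p under 0.05 was found for 10 of the 28, of which 9 were higher in old mice (18.9% of all genes reached it in either direction). The lowest old library exceeded the highest young one in 6 genes (8.67% of all genes), namely Ube2q1, Ube2m, Ube2r2, Ube2o, Ube2z and Ube2e1, and the reverse held for Ube2w (9.07%). The fold change was above 1 for 19 of the 28 genes, against 48.8% of all genes, and the median log2 fold change was 0.21, or 0.17 without Ube2q1, against -0.014 over all genes. Without library 3posI, 20 of the 28 were higher, 7 had an unadjusted p under 0.05, 1 passed the adjusted threshold, and the median was 0.12. Over all genes 159 passed the adjusted threshold in that fit. The other shares over all genes were not computed without 3posI, so these counts cannot be set against them. The members were chosen with results of these data known, so these counts describe the list and no test was made of it.

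On the TPM scale, tested with limma on log2(TPM + 0.5), 1 of the 28 genes passed as well, again Ube2q1 (0.382% of all genes passed). With TPM 16 genes were higher and 12 lower in old mice, with a median log2 difference of 0.11, while 39.1% of all genes were higher and their median was -0.091. TPM is divided by a gene's effective length in each library, so a gene can move on this scale without a change in its reads. RNA was measured in bulk, so that more RNA per cell and more cells with a given transcript cannot be told apart.

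**Figure D2:**
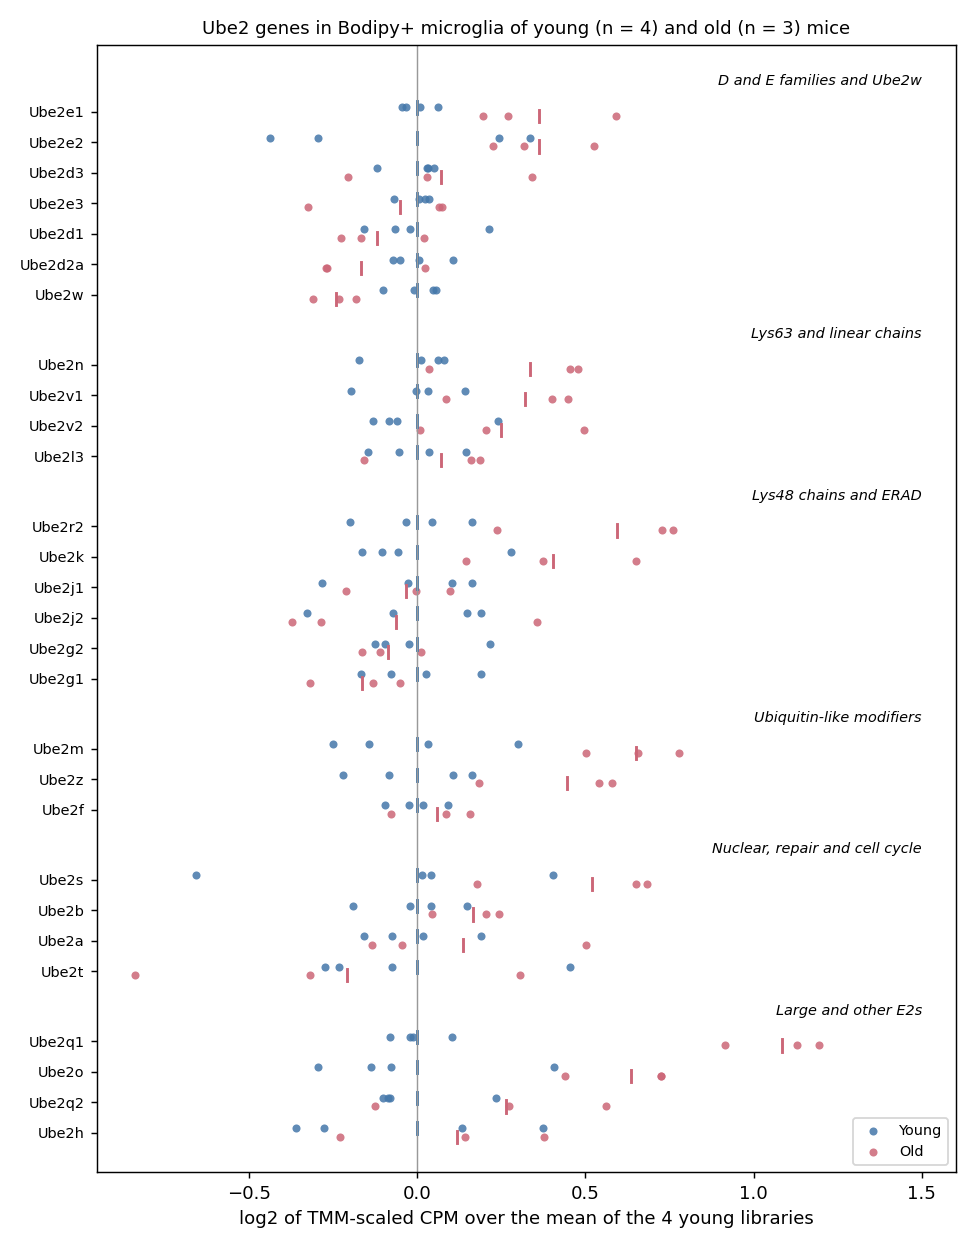
log2 of the TMM-scaled CPM in each library over the mean of the young libraries, for 28 of the 29 Ube2 genes grouped by function; points are libraries (blue young, n = 4; red old, n = 3) and ticks are the log2 of the group means. The old points of Ube2q1 sit near 1, apart from all young points, whereas most other genes have old and young points that overlap.

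Ube2q1 (ENSMUSG00000042572; GRCm38, chromosome 3, 89773616 to 89784000, plus strand) encodes an E2 with a long amino-terminal extension and was the gene with the strongest change. Young libraries had 13.7, 12.6, 12.02 and 12.6 CPM, and old libraries 27.8, 29.1 and 24.0 CPM. All 3 old values lay well above the highest young value. The means were 12.7 ± 0.696 CPM (SD, n = 4) and 27.0 ± 2.68 CPM (SD, n = 3). The log2 fold change was thus 1.08 ± 0.13 (SE; 95% interval 0.79 to 1.37; adjusted p = 0.0236, edgeR). In TPM the young libraries had 6.30, 6.35, 6.00 and 6.21 and the old libraries 15.6, 16.1 and 15.2 (log2 difference 1.26, adjusted p = 0.0117, limma). The TPM values within an age thus differed by less than 1 unit. Ube2q1 accounted for 0.34% of the summed E2 TPM in young and 0.805% in old mice.

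The size of this difference held when any 1 library was left out (log2 fold change 1.03 to 1.16), but the call did not always. The adjusted p was 0.0245 without 3posI and 0.0457 without 4posI, while removal of 14C gave 0.108, of 18C 0.0821, of 23C 0.0514, of 29C 0.0632 and of 2posI 0.0959.

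Ube2q2, the close relative of Ube2q1, did not show the same pattern. It had 22.5, 18.0, 18.1 and 17.8 CPM in young and 23.1, 28.2 and 17.5 CPM in old mice, so the groups overlapped (log2 fold change 0.26 ± 0.18, adjusted p = 0.463, edgeR). The ratio of Ube2q1 to Ube2q2 in TPM was 0.753 ± 0.0781 in young mice, with a range of 0.651 to 0.834, and 1.72 ± 0.299 in old mice, with a range of 1.43 to 2.03. In young libraries Ube2q2 was the more abundant of the pair, in old libraries Ube2q1 was.

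Among 8145 other genes with a mean of at least 10 CPM, the 3 whose log2 CPM followed that of Ube2q1 most closely over the 7 libraries were Kif2a, a kinesin that depolymerises microtubules (Pearson r = 0.993), Ercc1, a subunit of a DNA repair nuclease (r = 0.992), and Ncoa1, a coactivator of nuclear receptors (r = 0.991). The 7 points share the 2 age groups and the depth of each library. In all 3 genes the old libraries lay above the young ones in CPM. The genes were picked for likeness to a profile split by age, so this is no separate result. The log2 fold change was 0.74 for Kif2a (adjusted p = 0.0521, edgeR), 0.45 for Ercc1 (adjusted p = 0.101) and 1.18 for Ncoa1 (adjusted p = 0.0236). In TPM the groups were not apart for Kif2a (log2 difference 0.27, adjusted p = 0.54, limma) and Ercc1 (0.34, adjusted p = 0.232). For Ncoa1 they were (1.23, adjusted p = 0.0599).

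To show what lies before the start of the gene, the RefSeq promoter windows (GRCm38.p6, 250 bases before each start) were read for the 22 of 29 genes that had an entry, 33 windows in all. The window of Ube2q1 is printed with the most upstream one of Ube2m, the gene with the next smallest p, and of Ube2b, the only other of these genes with the same E-box. All are written in the direction of transcription, and capitals mark motifs found on either strand.
Ube2q1, chr3:89773359-89773608, plus strand: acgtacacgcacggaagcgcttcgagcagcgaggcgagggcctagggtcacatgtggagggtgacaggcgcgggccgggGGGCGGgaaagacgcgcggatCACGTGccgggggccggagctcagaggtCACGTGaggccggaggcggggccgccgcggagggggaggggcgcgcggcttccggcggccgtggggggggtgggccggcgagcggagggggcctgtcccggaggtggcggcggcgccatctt
Ube2m, chr7:13038276-13038525, minus strand: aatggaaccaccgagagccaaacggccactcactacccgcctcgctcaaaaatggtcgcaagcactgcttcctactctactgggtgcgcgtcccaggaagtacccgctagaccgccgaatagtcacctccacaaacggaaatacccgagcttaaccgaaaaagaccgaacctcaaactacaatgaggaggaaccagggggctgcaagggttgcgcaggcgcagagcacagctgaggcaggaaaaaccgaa
Ube2b, chr11:52000787-52001036, minus strand: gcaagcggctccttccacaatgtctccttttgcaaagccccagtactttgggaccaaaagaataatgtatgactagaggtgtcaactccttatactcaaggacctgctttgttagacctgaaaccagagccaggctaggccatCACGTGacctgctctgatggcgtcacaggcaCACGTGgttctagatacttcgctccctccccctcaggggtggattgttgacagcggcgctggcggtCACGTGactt
The Ube2q1 window is 77.2% G and C and holds 1 GC box (GGGCGG) and 2 E-boxes with the letters CACGTG. The Ube2b window holds this E-box 3 times. The E-box was present in 6.06% of the member windows and in 6.02% of 32851 promoter windows of all genes. The GC box was present in 75.8% of the member windows, from 20 of 22 genes, and in 32.7% of all windows. The median content of G and C was 70.8% in the member windows and 52.4% in all windows. The CCAAT box occurred in 15.2% of member windows and 33.8% of all. Of the other motifs, ETS (CCGGAAGT) occurred in 6.06% and 2.88%, CRE (TGACGTCA) in 3.03% and 1.55%, and the core of the interferon-stimulated response element (GAAANNGAA) in 6.06% and 7.13%. The member windows with this last motif were overlapping ones of 1 gene, Ube2d3, and held the same site. NRF1 (TGCGCATGC) occurred in 0 of 33 member windows and in 1.28% of all. No motif overlapped another in the windows printed, and a match is a description of the letters only.

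Ube2o, a very large enzyme that combines E2 and E3 activity and removes unassembled proteins in maturing red cells, had 7.36, 5.06, 4.53 and 5.27 CPM in young and 9.18, 7.54 and 9.18 CPM in old mice. Its old libraries all lay above the young ones, by a narrow margin between 3posI and 14C. The log2 fold change was 0.64, with an unadjusted p of 0.016 and an adjusted p of 0.169 in edgeR. The 8 erythroid markers summed to 813 CPM in 2posI and to 177 to 337 CPM in the other 6 libraries, and their part in the level of Ube2o was not tested. Ube2h, the E2 of the GID/CTLH ligase, ranged from 69.5 to 116 CPM in young and from 76.1 to 116 CPM in old mice and gave a log2 fold change of 0.12 (adjusted p = 0.802).

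Ube2m, Ube2f and Ube2z, which carry NEDD8 or are charged by the E1 Uba6, all had a fold change above 1, with none past the adjusted threshold. Ube2m, which loads NEDD8 onto most cullins, had 8.98, 10.9, 13.2 and 9.68 CPM in young and 16.9, 18.3 and 15.1 CPM in old mice. No old value fell within the young range, and the log2 fold change was 0.65 (unadjusted p of 0.0046, adjusted p = 0.111, edgeR). Ube2f, the NEDD8 E2 that acts on Cul5, had 57.3 to 65.3 CPM in young and 58.0 to 68.3 CPM in old mice (log2 fold change 0.06, adjusted p = 0.805). As a ratio of TPM, Ube2m stood at 0.244 ± 0.0593 of Ube2f in young mice, with a range of 0.186 to 0.326, and at 0.399 ± 0.0137 in old mice, with a range of 0.386 to 0.413.

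Ube2z, which receives ubiquitin and FAT10 from Uba6, had 26.6, 20.4, 22.4 and 25.6 CPM in young and 34.5, 27.0 and 35.5 CPM in old mice. The groups were apart, though 3posI and 14C nearly met. The log2 fold change was 0.45 (unadjusted p of 0.0165, adjusted p = 0.171, edgeR), and in TPM the groups overlapped (0.33, adjusted p = 0.35, limma).

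Among the 6 E2s that build Lys48 chains or serve degradation at the endoplasmic reticulum (ERAD), the members went both ways. Ube2r2, a relative of Cdc34 that extends chains for cullin ligases, had 31.3, 27.9, 33.1 and 35.9 CPM in young and 53.1, 54.4 and 37.8 CPM in old mice. All 3 old values were higher than the young ones, with 4posI close to 29C (log2 fold change 0.60, unadjusted p of 0.0046, adjusted p = 0.111, edgeR). Ube2k, which forms Lys48 chains alone and carries a ubiquitin-binding domain, had 43.9, 42.6, 55.5 and 40.8 CPM in young and 59.3, 71.7 and 50.6 CPM in old mice. Here 4posI fell below 23C (log2 fold change 0.41, unadjusted p of 0.033, adjusted p = 0.22). Ube2k overlaps the unclassified gene Gm42724 on the same strand, which had 374 to 1030 counts. The expected counts of Ube2k itself were whole numbers in all 7 libraries.

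The 4 ERAD enzymes had log2 fold changes just below 0. Ube2j1 and Ube2j2, which sit in the membrane of the endoplasmic reticulum, gave -0.03 and -0.06, and the soluble Ube2g1 and Ube2g2 gave -0.16 and -0.08, with adjusted p of 0.524 to 0.923 in edgeR. In TPM Ube2g1 had 22.8, 22.2, 20.1 and 23.7 in young and 17.3, 18.8 and 17.5 in old mice. These TPM ranges did not overlap, and the log2 difference was -0.30 (unadjusted p of 0.028, adjusted p = 0.214, limma), whereas its CPM ranges did.

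Of the 7 enzymes of the D and E families and Ube2w, 3 were higher and 4 lower in old mice in CPM. In TPM 2 were higher and 5 lower. Ube2e1 had 42.0, 43.6, 40.4 and 40.8 CPM in young and 62.9, 50.4 and 47.8 CPM in old mice. The old libraries were all higher, 2posI most of all (log2 fold change 0.36, unadjusted p of 0.0173, adjusted p = 0.172, edgeR). Reads at its locus can be shared with Nkiras1, on the opposite strand, which had 264 to 348 counts. Ube2d3 had 358, 318, 353 and 354 CPM in young and 353, 438 and 300 CPM in old mice, so that the old libraries lay below, within and above the young range. Its log2 fold change of 0.07 turned to -0.08 without 3posI, the library with 438 CPM. The TPM of Ube2d1, Ube2d2a and Ube2d3 summed to 410 ± 16.0 in young and 400 ± 60.7 in old mice.

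Ube2w, which attaches ubiquitin to the amino terminus of its targets, was the only member with every old library below every young one in CPM. The young libraries had 49.3, 52.5, 54.9 and 54.6 CPM and the old ones 45.0, 42.7 and 46.6 CPM. The difference in reads was small (log2 fold change -0.24 ± 0.10, unadjusted p of 0.045, adjusted p = 0.253, edgeR). In TPM it was larger, with 37.5, 43.1, 45.4 and 38.3 in young and 26.6, 26.7 and 33.5 in old mice (log2 difference -0.50 ± 0.13, unadjusted p of 0.0042, adjusted p = 0.12, limma).

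The 4 E2s of Lys63 and linear chains had fold changes above 1 in CPM. Ube2n, the only E2 that builds Lys63 chains with its Ube2v partners, had 86.6, 76.2, 89.7 and 90.7 CPM in young and 118, 120 and 87.9 CPM in old mice. In this gene 2posI and 3posI were higher than all young libraries and 4posI was not (log2 fold change 0.34, unadjusted p of 0.041, adjusted p = 0.24, edgeR). Ube2v1, a partner without an active site, had 166, 145, 170 and 183 CPM in young and 226, 219 and 176 CPM in old mice, the same order of old libraries against young (log2 fold change 0.32, unadjusted p of 0.047, adjusted p = 0.259). Ube2v1 shares its locus and strand with the readthrough gene Gm20431, which had 507 to 1891 counts, and its own counts were fractional in all 7 libraries. The TPM of Ube2v1 and Ube2v2 together were 1.56 ± 0.0752 times that of Ube2n in young and 1.54 ± 0.123 times in old mice. This nearly equal ratio is one of RNA, and the proteins were not measured. Ube2l3, which works with RBR ligases such as the linear chain complex, ranged from 162 to 198 CPM in young and from 160 to 204 CPM in old mice (log2 fold change 0.07, adjusted p = 0.811).

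The 4 nuclear E2s gave no call. Ube2s, which adds Lys11 chains for the anaphase-promoting complex, had 43.8, 27.0, 43.0 and 56.4 CPM in young and 66.8, 48.2 and 68.3 CPM in old mice, with 3posI within the young range (log2 fold change 0.52 ± 0.24, adjusted p = 0.278, edgeR). The 12 cell cycle markers summed to 483 to 710 CPM in young and 346 to 741 CPM in old mice. The Ube2s locus overlaps Rpl28 on the opposite strand, and the library preparation did not keep strand. Ube2b and Ube2a, both homologues of yeast Rad6 that act on histone H2B and on PCNA, gave 0.17 (adjusted p = 0.484) and 0.14 (adjusted p = 0.71, fit with X kept). Ube2t, the E2 of the Fanconi pathway, gave -0.21 (adjusted p = 0.748), and its lowest value, 4.78 CPM, was in 3posI.

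RSEM reports for each gene and library an effective length, which did not enter the CPM comparison. It rests on the lengths of the gene's transcripts weighted by their estimated use, but is somewhat shorter. Ube2z, whose annotated transcript has 3997 bases, had an effective length of 3948 bases in every library. In limma on log2 effective length, 1 of the 28 genes passed an adjusted p of 0.05, Ube2o, against 1.1% of all genes. In 7 genes the ranges of old and young did not overlap (12.9% of all genes). Of the 28 genes 13 were longer and 13 shorter in old mice, and 2 had one fixed length. Over all genes 6787 were longer and 4978 shorter.

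The effective length of Ube2o was 4007, 4036, 4056 and 3908 bases in young and 3656, 3656 and 3648 bases in old mice. The old values were nearly the same as each other and all below the shortest young one. The log2 difference was -0.13 (adjusted p = 0.0298, limma). The exact two-sided permutation test gave p = 0.0286, the smallest that 3 against 4 libraries allow. It gave the same p for Ube2q1, Ube2w, Ube2g1 and Ube2j2, which limma did not call. Both tests used the same values, so the permutation p is no separate support for Ube2o. The annotation (GENCODE vM21) gives Ube2o a coding transcript of 5205 bases and processed transcripts of 3550 and 461 bases. With 1 library left out, the adjusted p ranged from 0.0136 to 0.0994 and passed only without 29C.

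Ube2q1 was also estimated as shorter in old mice, at 3034, 2847, 2829 and 2657 bases in young and 2184, 2300 and 2254 bases in old libraries. Every old value was below every young one (log2 difference -0.34, adjusted p = 0.0532, limma). Its annotated transcripts are coding ones of 3077 and 1650 bases, both with 13 exons, and a single-exon retained intron of 3560 bases. With the effective length as an offset in edgeR, the log2 fold change of Ube2q1 was 1.44 (adjusted p = 0.0087). Ube2w went the other way, at 1836, 1753, 1710 and 1864 bases in young and 2072, 2031 and 1981 bases in old libraries (log2 difference 0.18, adjusted p = 0.114). Its longest annotated transcripts are coding ones of 2181 and 1508 bases and a retained intron of 1517 bases. Ube2g1 and Ube2j2 were longer in every old library too, with log2 differences of 0.06 (adjusted p = 0.0667) and 0.12 (adjusted p = 0.205). So were Ube2f, with 0.04 (adjusted p = 0.264), and Ube2g2, with 0.015 (adjusted p = 0.402). Values per gene do not say which transcript was read.

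**Figure D3:**
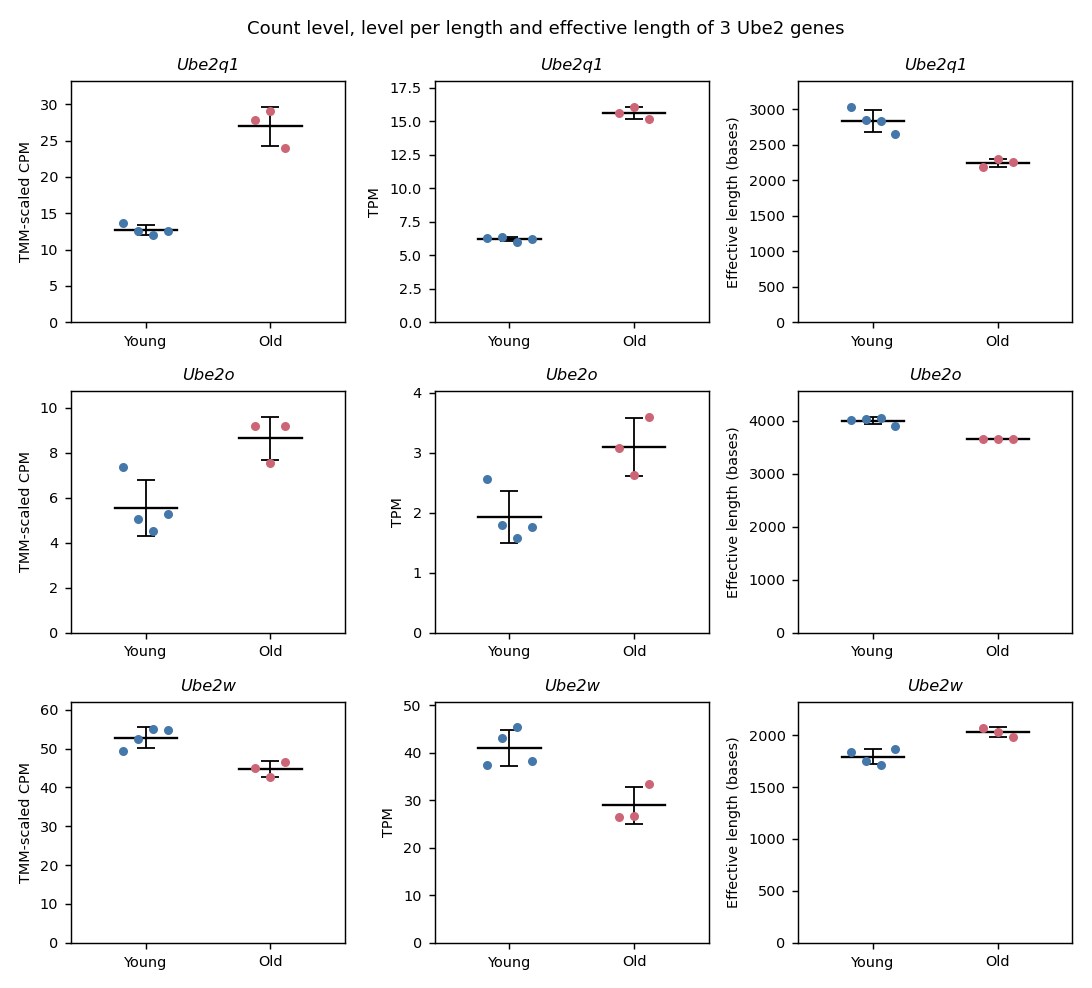
CPM (left), TPM (middle) and effective length in bases (right) of Ube2q1, Ube2o and Ube2w; points are libraries (blue young, n = 4; red old, n = 3), with bars at the mean and 1 SD, and all axes start at 0. Ube2q1 and Ube2o have more reads and a shorter effective length in old mice, and Ube2w has fewer reads and a longer effective length.

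The genes that act with these E2s were listed by function, as 188 autosomal genes in 13 lists, each counted once here. Of them 5 passed the adjusted threshold in edgeR, all higher in old mice, against 0.803% of all genes, and 41 had an unadjusted p under 0.05, of which 24 were higher (18.9% of all genes). Their median log2 fold change was 0.017. In CPM 105 were higher and 83 lower, while in TPM 66 were higher and 122 lower, with a median of -0.12. Over all genes the share that was higher also fell, from 48.8% in CPM to 39.1% in TPM.

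Of these, Wdr26 and Ranbp9 belong to the GID/CTLH ligase, the partner of Ube2h. Wdr26, a scaffold of the complex, had 71.8, 64.8, 62.9 and 73.4 CPM in young and 127, 127 and 123 CPM in old mice (log2 fold change 0.88 ± 0.11, adjusted p = 0.0236, edgeR). Ranbp9, another scaffold, had 11.5, 11.3, 12.5 and 14.0 CPM in young and 24.9, 22.9 and 23.1 CPM in old mice (0.94 ± 0.13, adjusted p = 0.028), and its counts were fractional in all libraries. In both genes the old libraries were far above the young ones. In this list 10 of 11 genes had a fold change above 1 in CPM, against 48.8% of all genes, with a median log2 value of 0.09. In TPM 5 were higher and 6 lower, with a median of -0.0063, and Ube2h itself was not called.

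Nploc4, a cofactor of the segregase p97 that draws ubiquitylated proteins from the endoplasmic reticulum, had 17.1, 14.3, 14.2 and 15.9 CPM in young and 28.3, 32.9 and 29.0 CPM in old mice (log2 fold change 0.97 ± 0.13, adjusted p = 0.0252, edgeR). It was the only one of 22 ERAD genes to pass. The next was Ubxn4, an anchor of p97, with 0.52 (adjusted p = 0.0979), and the list had 10 higher and 12 lower genes.

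Trip12 is a large ligase of the HECT class, which takes ubiquitin onto its own cysteine before passing it on. It had 59.5, 56.6, 49.2 and 52.0 CPM in young and 92.3, 94.6 and 79.6 CPM in old mice (log2 fold change 0.71 ± 0.12, adjusted p = 0.0421, edgeR). All its old libraries lay above all young ones. Among the 22 HECT ligases tested 13 were higher and 9 lower, with a median log2 fold change of 0.32. In TPM the median was -0.029, with 10 higher and 12 lower.

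With single libraries left out, these calls were often lost. Wdr26 and Nploc4 passed without 3posI and without 4posI, Ranbp9 without 3posI alone, and Trip12 in none of the 7 fits. The log2 fold change of each of these 4 genes stayed between 0.66 and 1.03.

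The other lists gave no call in edgeR. Of the ubiquitin genes, Ubb had 1798 ± 202 CPM in young and 2350 ± 469 CPM in old mice (log2 fold change 0.39, adjusted p = 0.304). Among E1 enzymes, Uba6 gave 0.44 (adjusted p = 0.271) and Mocs3, which activates Urm1, gave -0.46 (adjusted p = 0.283). Nedd8 itself had 114, 111, 137 and 135 CPM in young and 190, 172 and 141 CPM in old mice, all old values above the young ones (0.44, adjusted p = 0.167). Cand1, which exchanges the substrate receptors of cullins, had 63 to 69.6 CPM in young and 43.1 to 49.4 CPM in old mice (-0.48, adjusted p = 0.0752). In TPM Cand1 passed with a log2 difference of -1.15 (adjusted p = 0.0387, limma), and its effective length was greater in old mice (log2 difference 0.61, adjusted p = 0.0491). Cul3 gave 0.79 (adjusted p = 0.155), with a young library, 23C, at 27.2 CPM against 13.6 to 14.4 CPM in the other 3. Without 23C it gave 1.09 (adjusted p = 0.0486, edgeR). With any other 1 library left out the adjusted p of Cul3 was 0.172 to 0.329.

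In the SUMO pathway list, the ligases Pias3 and Nsmce2 gave -0.68 (adjusted p = 0.0782, edgeR) and 0.50 (adjusted p = 0.132). Among partners of Ube2n, Rnf168, a ligase at DNA breaks, gave -0.42 (adjusted p = 0.138). Tnfaip3 (A20), which restrains NF-kB, had 670 to 881 CPM in young and 223, 277 and 666 CPM in old mice (-1.02, adjusted p = 0.179). The old value in 4posI almost reached the young range. The adjusted p of Tnfaip3 was 0.0457 without that library and 0.223 to 0.353 with any other 1 library left out. The RBR ligases Rnf144b and Rnf19a gave -1.31 (adjusted p = 0.0852) and -0.48 (adjusted p = 0.125). In the list of the anaphase-promoting complex, Fzr1, the activator Cdh1, gave -0.42 (adjusted p = 0.114) and Anapc2 gave -0.28 (adjusted p = 0.212). For the DNA damage E3s, Rnf40, the Ube2b partner that acts on H2B, had 59.6 to 61.9 CPM in young and 36.1 to 45.3 CPM in old mice (-0.54, adjusted p = 0.0718), and Faap100 gave -0.76 (adjusted p = 0.162). The medians of these lists were -0.036 for Ube2n partners, -0.11 for RBR ligases, 0.038 for the SUMO pathway, 0.0077 for the NEDD8 pathway, -0.14 for the anaphase-promoting complex and -0.20 for DNA damage E3s.

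**Figure D4:**
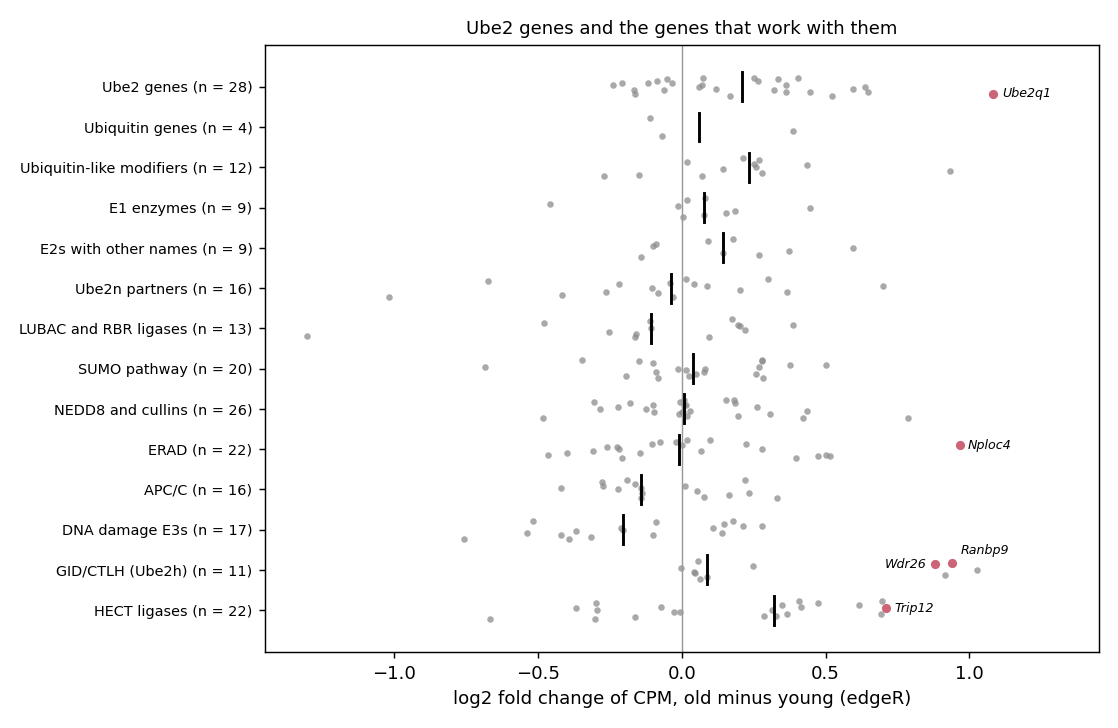
log2 fold change of CPM, old minus young, from edgeR, for the 28 tested Ube2 genes and 13 lists of partner genes (a gene may stand in more than 1 list); each point is a gene, red and named where the adjusted p was under 0.05, and black bars are medians over the whole list; 3 genes that are not reported are not drawn. The 5 red genes, Ube2q1, Nploc4, Wdr26, Ranbp9 and Trip12, all lie above 0.7.

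The E2s left out by name were measured too. Ube2l6, the interferon-induced E2 for Isg15, had 63.9, 51.1, 68.0 and 120 CPM in young and 130, 101 and 112 CPM in old mice. The young library 29C reached the old range (log2 fold change 0.59, adjusted p = 0.275, edgeR). The modifier Isg15 had 25.8, 17.9, 25.7 and 51.0 CPM in young and 49.4, 74.8 and 48.4 CPM in old mice (0.93, adjusted p = 0.185), with 29C again among the old values. The 14 interferon response markers summed to 2497 CPM in 29C, to 922 to 1330 CPM in the other young libraries and to 2236 to 3116 CPM in the old ones. Without 29C the adjusted p was 0.0924 for Ube2l6 and 0.0885 for Isg15. With any other 1 library left out it was 0.286 to 0.486 for Ube2l6 and 0.172 to 0.365 for Isg15. Ube2c, which starts chains for the anaphase-promoting complex, had 24.0 to 40.8 CPM in young and 22.0 to 49.1 CPM in old mice (0.09, adjusted p = 0.884).

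The count threshold was not near any member. The lowest, Ube2e2, had 44 to 86 counts, and the highest of the 4 genes under it, Ube2d2b, had at most 6. Ube2nl had at most 1.37 counts, Ube2u at most 1, and Ube2d4 was listed at 0 in every library.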

How the data were processed

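RNA-seq libraries of Bodipy+ microglia from 4 young and 3 old mice were analysed. Because of the low input, polyadenylated RNA was copied and amplified with Smart-seq2, without strand information and with no molecular identifiers named, so that counting error alone understates the error. Reads were trimmed with skewer, mapped to GRCm38 with STAR and quantified with RSEM on GENCODE m15, and FastQC 0.11.5 is named in the submitters' processing notes. For STAR and RSEM no version was found in the methods, labels or headers. The authors deposited, per gene and library, expected counts without normalization, TPM and FPKM values scaled within the library, and a length and an effective length. The deposited FPKM values were not used. The labels name a PureLink kit and the methods a PicoPure kit for RNA extraction.

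Expected counts were rounded to whole numbers, since RSEM divides reads that fit several genes. Genes with a count above 10 in at least 1 library and on autosomes were kept, as in the study. TMM factors and the quasi-likelihood test came from edgeR 4.0.16 in R 4.3.3, with age as the only term, because the labels give no batch or pairing. CPM were computed with TMM-scaled library sizes, and standard errors were derived from the log2 fold change and its F statistic. log2(TPM + 0.5) and log2 effective length were tested with limma 3.58.1. p-values were adjusted by Benjamini-Hochberg over all 17559 genes, with a call at 0.05. Coordinates, transcripts and overlaps came from GENCODE vM21 (GRCm38), a later release, in which 42 of the tested genes had no entry. The effective lengths of single genes were also compared with exact permutation tests, and sums and ratios were not tested.

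Named genes were the members called in either fit, the 10 with the smallest p, the 5 with the highest mean TPM, those next to the count threshold, Ube2l6 and Ube2c, and members whose log2 changes in CPM and TPM differed by over 0.5 (none did). In each partner list they were the genes called and the 2 with the smallest p, and for Ube2q1 the 3 genes with the highest correlation. Other members appear with their family, and 3 genes that these rules name are not reported here. The members, lists and rules were chosen with earlier results of these data known. Ube2w, Ube2g1, Ube2j2, Ube2f and Ube2g2 were described for their effective length after its values were seen. Alternatives were limma-voom with and without quality weights, DESeq2 1.42.0, other scaling factors, filters, thresholds and pseudocounts, an effective length offset, and each library left out. The fits were also run on counts simulated with less variation between libraries than edgeR estimated here. They were thus not tested at the variation of these data.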

Additional observations from a re-analysis of the deposited data

Results flagged for a closer look

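Among the 4 young libraries, 1 value stood far from the other 3 in 5 of 111 sets of young values tested with Dixon's ratio, the gap to the nearest value over the whole range, and chance alone would give about 5.55. In Cul3, 23C had 27.2 CPM against 13.6 to 14.4 CPM (ratio 0.944). In Ube2q2, 14C had 22.5 CPM against 17.8 to 18.1 CPM (ratio 0.945). In Ube2d3, 18C had 318 CPM against 353 to 358 CPM (ratio 0.883), and in Ube2v2, 29C had 31.9 CPM against 24.7 to 25.9 CPM (ratio 0.832). In the TPM of Ube2d2a, 18C had 70.6 against 59.7 to 61.4 (ratio 0.843). These 5 values fell in 4 different libraries, 18C holding 2 of them.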

How the results depend on the processing

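Of 702 values recomputed for the named genes under other settings, 639 stayed the same, 34 were no longer called, 23 became called, 2 reversed and 4 moved without a test. The same meant the same direction and side of the threshold. For removal of a trend with gene length, which had no test, it meant a shift under 1 SE. Most named genes were not called in the main fit and had no call to lose. All 34 lost calls fell in fits with 1 library left out. The reversed value was that of Ube2d3, at -0.0149 with sample quality weights and -0.0819 without 3posI, and up to 0.19 without any other 1 library. Of the Ube2 genes, Ube2q1 was called by limma-voom, by edgeR with any scaling, filter or offset tried, and by DESeq2, which called 3, adding Ube2m and Ube2r2. The partner genes called were 8 with quality weights, 22 with DESeq2 and 13 at an adjusted p under 0.1, and genes called over the whole table were 318, 1403 and 637 in the same order, 213 with the effective length offset and 288 without a filter. The cause of these changes was not tested. The summed level had a ratio of 1.10 in CPM. With 1 library left out, 0 to 1 Ube2 genes were called in CPM, 0 to 1 in TPM (0 without 14C and without 2posI) and 0 to 1 in effective length, 19 to 21 were higher, the median log2 fold change was 0.119 to 0.247, and 0 to 6 partner genes and 1 to 159 genes in all were called. With 3 against 4 libraries an exact permutation p cannot fall below 0.0286. Expected counts were fractional in all 7 libraries for several members, among them Ube2n, Ube2d3, and Ube2v1 and Ube2e1, of which the last 2 overlap genes named above. No paired analysis was possible because the labels give the ages no shared replicate numbers.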
